A study of Mus musculus with 6 samples.

Results

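The ATAC-seq peaks that lay at promoters of protein-coding genes on 1 strand were described in untreated V6.5 mouse embryonic stem cells (mESCs). In ATAC-seq the transposase Tn5 cuts accessible DNA and tags it for sequencing, so a peak is a stretch of DNA where cuts piled up. Of the 41014 peaks in the deposited list, 5161 (12.6%) lay within 1 kb of the transcription start site (TSS) of a curated RefSeq protein-coding transcript (NM accessions) on chromosomes 1 to 19, with all such TSSs within 1 kb on the same strand. They are named single-promoter peaks here. A further 455 peaks lay within 1 kb of TSSs of both strands and are named bidirectional-promoter peaks, so that single-promoter peaks made up 91.9% of the 5616 autosomal promoter peaks. Positions alone chose the peaks, with the distance taken from the peak edge, so a wider peak meets the rule more easily. Score and base composition had no part in the choice.

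The series compared 3 conditions with 2 samples each. These were untreated V6.5 cells, and mESCs whose ZBTB21 protein, a zinc finger factor, carries a degron, at 0 h and at 6 h of treatment. The degron samples were not analysed here. The untreated cells were grown with LIF on irradiated feeder fibroblasts, and 50000 cells went into each library. The methods of the study differ for mESCs, since they mention no feeders and list CHIR99021 and PD0325901 beside LIF and serum. The source field of their labels names V6.5 cells and mentions no degron, while a treatment text that all 6 labels share speaks of degron cells. The list pools both untreated samples, so neither the spread between them nor the depth of either library is known. Each peak carries a whole-number score from 540 to 953. The lowest value equals the scaled score that the IDR method, a measure of how well 2 replicates rank the same peaks, writes at an IDR of 0.05, and the score was read that way from its values alone. A higher score then stands for a lower IDR, that is, a more reproducible peak, and not for likeness of rank alone. A promoter that is missing from such a thresholded list cannot be called closed.

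A promoter is the stretch around a TSS on which general transcription factors and RNA polymerase II assemble, and the DNA just upstream of an active TSS is usually free of a stable nucleosome. Mammalian promoters fall broadly into CpG-rich ones, common at genes that most cells use, and CpG-poor ones, common at genes of specialised tissues and more often with a TATA box. Many CpG-rich TSSs lie back to back with the TSS of a neighbouring gene, and the rule used here sets those pairs aside. Promoters were called CpG-rich when the window from 500 bp before to 500 bp after the TSS had a GC content of at least 50% and a CpG observed/expected ratio of at least 0.6. This ratio sets the number of CpG dinucleotides against the number that the C and G content alone would give.

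Promoter sequences show what these peaks covered. They come from RefSeq on GRCm38, the assembly that mm10 names, run from 250 bases before the TSS to 50 bases from the TSS on, and are written 5′ to 3′ on the strand of the gene. Capitals mark matches, on either strand, to short motifs that are spelled out with the counts further on. The promoters of Fbrsl1 (chr5:110448454-110448753, minus strand) and Abcf2 (chr5:24577418-24577717, minus strand) are shown because their peaks had some of the highest scores. Fbrsl1 holds 5 matches to the GC box and no TATA box, and its CpG ratio over these 300 bases was 0.78. Abcf2 encodes an ATP-binding cassette protein, and its window had a GC content of 56.3%.
Fbrsl1: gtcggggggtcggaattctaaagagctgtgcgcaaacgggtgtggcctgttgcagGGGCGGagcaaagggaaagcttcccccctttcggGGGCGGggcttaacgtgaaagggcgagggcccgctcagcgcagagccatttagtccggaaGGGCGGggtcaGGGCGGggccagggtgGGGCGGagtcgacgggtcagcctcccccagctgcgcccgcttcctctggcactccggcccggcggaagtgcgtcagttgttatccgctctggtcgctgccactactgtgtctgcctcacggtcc
Abcf2: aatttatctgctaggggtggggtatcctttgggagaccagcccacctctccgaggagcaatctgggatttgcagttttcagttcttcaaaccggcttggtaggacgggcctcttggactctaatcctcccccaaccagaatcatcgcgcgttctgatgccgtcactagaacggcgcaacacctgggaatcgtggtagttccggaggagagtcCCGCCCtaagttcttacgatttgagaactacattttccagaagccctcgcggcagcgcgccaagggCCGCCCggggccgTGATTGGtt

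Fam83d (chr2:158767849-158768148, plus strand) and H3f3b (chr11:116024455-116024754, minus strand) are the highest-scored peaks over a TSS with a TATA box, of 43 such peaks in the promoter table. H3f3b encodes the replication-independent histone H3.3. The TATA box starts 38 bases before the TSS in Fam83d and 27 bases before it in H3f3b. Both windows also have other matches, 4 GC boxes in Fam83d, of which a pair shares a base, and 2 NFY boxes and an octamer in H3f3b.
Fam83d: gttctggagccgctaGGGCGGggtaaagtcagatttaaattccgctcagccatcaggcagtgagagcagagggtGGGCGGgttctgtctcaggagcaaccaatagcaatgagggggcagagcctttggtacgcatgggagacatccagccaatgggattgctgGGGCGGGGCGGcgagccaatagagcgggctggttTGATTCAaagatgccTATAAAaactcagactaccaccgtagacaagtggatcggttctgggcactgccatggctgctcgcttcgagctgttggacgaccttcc
H3f3b: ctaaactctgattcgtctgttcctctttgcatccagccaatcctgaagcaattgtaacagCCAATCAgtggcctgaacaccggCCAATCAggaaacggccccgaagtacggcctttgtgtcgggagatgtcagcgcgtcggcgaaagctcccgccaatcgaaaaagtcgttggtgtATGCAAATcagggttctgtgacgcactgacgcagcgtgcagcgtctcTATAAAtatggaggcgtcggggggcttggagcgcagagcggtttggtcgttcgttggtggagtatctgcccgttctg

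Arrdc4 (chr7:68749189-68749488, minus strand), which encodes an arrestin-domain protein, and Cep97 (chr16:55934799-55935098, minus strand), which encodes a centrosomal protein, are the highest-scored CpG-poor promoters. Their CpG ratios in the 300 bases were 0.42 and 0.45. Cep97 has 1 match, to the ZNF143 core, 33 bases before the TSS.
Arrdc4: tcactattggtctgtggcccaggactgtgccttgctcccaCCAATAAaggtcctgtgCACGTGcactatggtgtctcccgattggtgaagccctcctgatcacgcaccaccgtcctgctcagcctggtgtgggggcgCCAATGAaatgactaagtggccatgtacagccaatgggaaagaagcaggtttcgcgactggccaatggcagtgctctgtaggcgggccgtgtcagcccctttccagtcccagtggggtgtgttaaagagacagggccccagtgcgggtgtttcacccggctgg
Cep97: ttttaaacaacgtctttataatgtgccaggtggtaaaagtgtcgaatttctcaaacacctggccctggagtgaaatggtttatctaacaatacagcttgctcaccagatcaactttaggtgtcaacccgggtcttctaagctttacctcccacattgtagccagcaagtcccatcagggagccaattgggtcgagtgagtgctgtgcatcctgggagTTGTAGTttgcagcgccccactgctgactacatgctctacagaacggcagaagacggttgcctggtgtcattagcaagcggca

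Zfp42 (chr8:43306960-43307259, minus strand), which encodes REX1, and Nanog (chr6:122707239-122707538, plus strand) are shown as pluripotency genes. The Zfp42 window holds an octamer, the site of POU factors, 186 bases before the TSS. In the Nanog window, with a CpG ratio of 0.19, none of the searched motifs was found as spelled.
Zfp42: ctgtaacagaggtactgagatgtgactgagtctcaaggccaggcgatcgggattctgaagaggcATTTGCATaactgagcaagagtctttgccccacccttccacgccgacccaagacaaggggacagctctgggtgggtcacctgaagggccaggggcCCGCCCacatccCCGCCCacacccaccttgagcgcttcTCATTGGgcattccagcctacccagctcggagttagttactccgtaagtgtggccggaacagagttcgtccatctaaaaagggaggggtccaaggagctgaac
Nanog: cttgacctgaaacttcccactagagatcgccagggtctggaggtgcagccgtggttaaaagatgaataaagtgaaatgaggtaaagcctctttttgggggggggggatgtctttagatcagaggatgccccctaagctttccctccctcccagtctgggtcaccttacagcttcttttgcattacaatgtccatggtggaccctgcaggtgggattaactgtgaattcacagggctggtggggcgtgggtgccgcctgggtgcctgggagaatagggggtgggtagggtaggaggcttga

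Most single-promoter peaks covered a TSS. The rule placed each of them within 1 kb of a TSS, so the shares below describe positions within that limit only. Of the 5161 peaks, 4330 (83.9%, Wilson 95% interval 82.9 to 84.9, which covers counting error only) covered a TSS and 831 lay beside it. The midpoint lay within 100 bp of the nearest TSS in 2320 peaks (45%), within 200 bp in 3418 (66.2%) and within 500 bp in 4390 (85.1%). The median offset of the midpoint was -5 bp, where negative values are upstream, with quartiles at -120 and 117 bp. By gene structure, 2627 midpoints (50.9%) fell upstream of the TSS, 1806 (35.0%) in the first exon and 635 (12.3%) in the first intron. Later exons held 43 midpoints and later introns 41.

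**Figure D1:**
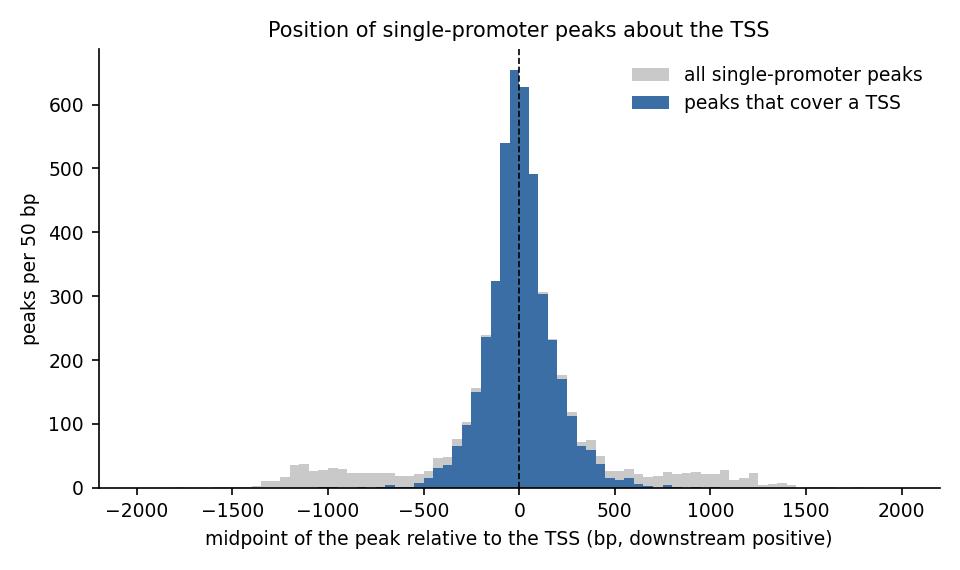
Number of single-promoter peaks per 50 bp (y axis) by the position of the peak midpoint relative to the nearest TSS in bp (x axis, downstream positive), with all peaks in grey and those that cover a TSS in blue. The counts pile up about the TSS, where 3418 midpoints lie within 200 bp of it, with low shoulders of peaks beside the TSS on both sides.

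Neither side of the TSS was favoured by a margin beyond the spread between chromosomes. Midpoints lay downstream in 49.4% ± 4.7 (mean and SD over 19 autosomes) of the peaks with a nonzero offset, against 50.6% upstream, and fewer lay downstream on 12 of 19 autosomes (two-sided exact sign-flip permutation test over the autosomes, p = 0.6, Benjamini-Hochberg adjusted p = 0.6 over 13 tests). With only the peaks that scored above the median of the list, 696, the downstream share was lower by 8.24 percentage points ± 12 (SD) than the upstream share, and the adjusted p of the sign-flip test was 0.0077. All p-values of this test measure the spread between chromosomes of 1 list and not between samples, and the smallest it allows is 3.8e-06.

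The peaks beside the TSS had lower scores. Their median score was 687, against 752 for peaks over a TSS, and the difference per autosome was 67.4 ± 25.1 score units, with the same sign on 19 of 19 autosomes (adjusted p = 6.2e-06, exact sign-flip permutation test). They were also narrower, with a median width of 561 bp against 783.5 bp, which is a description only since a wide peak reaches the TSS more easily. Of the 831, 457 lay upstream and 374 downstream, and the median gap from the peak edge to the TSS was 590 bp.

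At the edge of the rule, 113 peaks had their nearest edge more than 900 bp from the TSS, and 110 other autosomal peaks lay just outside, up to 1100 bp away. C1qa, which encodes a chain of complement C1q, and Dok2, an adaptor protein gene, were just inside with edges 1000 bp upstream and scores of 582 and 776. Csf3, which encodes the cytokine G-CSF, was just inside at 998 bp with a score of 685. Dctn2, a dynactin subunit gene, was left out at 1002 bp with a score of 583. Gm20604 and Phldb3 were both left out at 1004 bp, with scores of 645 and 730.

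Single-promoter peaks were wider, higher in score and richer in G and C than peaks 1 to 10 kb from a TSS. They fell short of bidirectional-promoter peaks in all 3 measures. Median widths were 748 bp for single-promoter peaks (quartiles 595 and 968), 848 bp for bidirectional-promoter peaks and 524 bp for the 8646 peaks that lay 1 to 10 kb from a curated TSS. The width difference per autosome was 223.5 bp ± 17.8 (SD, n = 19) over the 1 to 10 kb class and -102.6 bp ± 48.6 against the bidirectional class, each with the same sign on 19 of 19 autosomes (adjusted p = 6.2e-06 for both, exact sign-flip permutation test). Wide peaks reach a TSS, and TSSs of both strands, more often by the distance rule itself. Counted from the peak midpoint in place of the edge, the difference was 233.0 bp from the 1 to 10 kb class. From the bidirectional class it was -104.9 bp.

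Median scores were 738 for single-promoter peaks, 801 for bidirectional-promoter peaks and 693 for the 1 to 10 kb class. Per autosome, single-promoter peaks scored 44.0 ± 17.9 units above the 1 to 10 kb class on 19 of 19 autosomes (adjusted p = 6.2e-06, exact permutation test). They stood at -63.5 ± 31.6 units relative to the bidirectional class, lower on 18 of 19 autosomes (adjusted p = 1.1e-05, same exact permutation test). The GC content of the peaks had medians of 59.2%, 60.9% and 52.4% in the same order. It differed by 6.94 percentage points ± 1.01 from the 1 to 10 kb class (19 of 19 autosomes, adjusted p = 6.2e-06) and by -1.88 ± 1.74 from the bidirectional class (16 of 19 autosomes, adjusted p = 9e-05, exact permutation test). Another listed peak lay within 10 kb of 50.8% of single-promoter peaks, 40.4% of bidirectional-promoter peaks and 65.3% of the 1 to 10 kb class, which is given without a test.

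**Figure D2:**
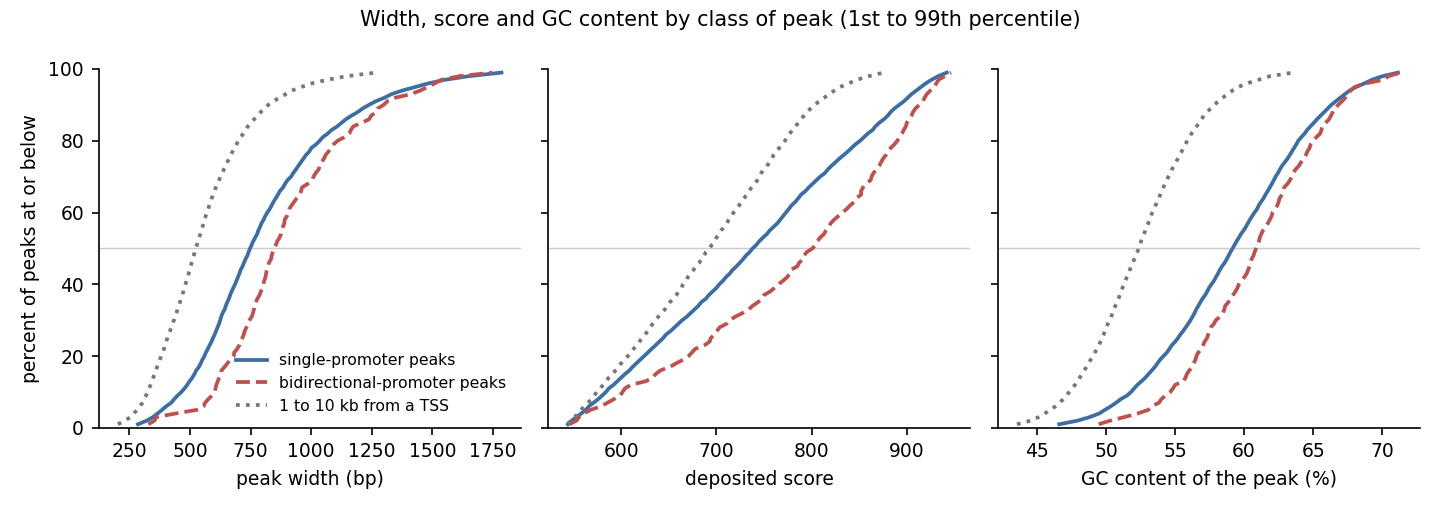
Cumulative percent of peaks (y axis) by peak width in bp, deposited score and GC content in percent (x axes, left to right) for single-promoter peaks (solid), bidirectional-promoter peaks (dashed) and peaks 1 to 10 kb from a TSS (dotted), drawn from the 1st to the 99th percentile. The single-promoter curve lies between the others at the median in each panel, with 748 bp, a score of 738 and a GC content of 59.2%.

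Width and score did not rise together throughout among single-promoter peaks. In 8 groups of near-equal size by width, the median score was 689.5 in the narrowest group (168 to 494 bp), reached 801 at 670 to 748 bp and was 655 in the widest (1183 to 2922 bp). The share of peaks over a TSS went from 53.7% in the narrowest group to 95.8% in the widest. The share at genes with a CpG-rich promoter, judged at the TSS with most transcripts, went from 38.5% to 78.8%. Peaks share a library pool and neighbouring peaks share sequence, so this is a description across peaks.

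**Figure D3:**
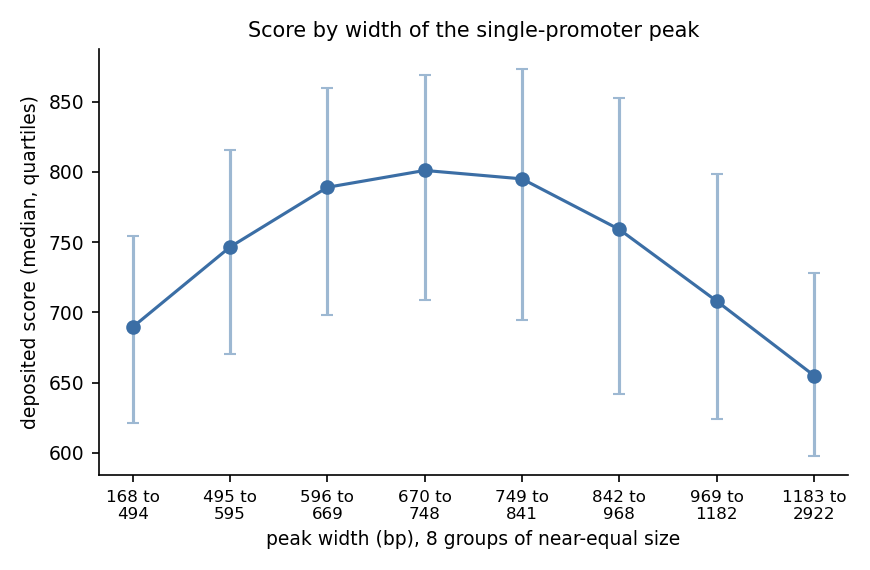
Deposited score (y axis, points are medians and bars the quartiles) in 8 width groups of single-promoter peaks (x axis, range of widths in bp). The median score peaks at 801 in the group of 670 to 748 bp and lies at 655 in the widest group.

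The highest-scored peaks over a TSS belonged to genes of varied roles. Fbrsl1 had 953 (931 bp, GC 62.6%), the highest value in the list. Usp1, which encodes a deubiquitinase that acts on FANCD2 and PCNA, and Arrb2, which encodes beta-arrestin 2, had 952. Abcf2, Ephb3, a receptor tyrosine kinase gene, and Sel1l, which encodes an adaptor of endoplasmic reticulum-associated degradation, had 951. Arrdc4, Fnbp4 and Tial1, an RNA-binding protein gene, had 950, and Cep97 had 949. These 10 peaks were 624 to 1101 bp wide, and the offsets of their midpoints from the TSS ran from -345 to 290 bp. At the lowest score, 540, were Abhd4, Crk, an adaptor protein gene, Ddx6, an RNA helicase gene, Dock9 and Fam43b. Their widths ran from 728 to 2115 bp. They were taken among peaks over a TSS, with ties broken by gene symbol, so they do not stand for all peaks of that score.

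The widest peak, 2922 bp, lay at Nr3c1, which encodes the glucocorticoid receptor, and had a score of 541. Fbxl19, a gene of a CpG-island binding F-box protein, followed with 2343 bp and a score of 600. Schip1 had 2327 bp and 764, Stox2 2299 bp and 630, and Sp8, a zinc finger factor gene, 2290 bp and 612. The Sp8 peak did not cover the TSS, from which its edge was 609 bp away. The narrowest peaks were those of Osbpl1a (168 bp), Nt5m (175 bp), Lifr (184 bp), Cblif (196 bp) and Mbnl2 (197 bp). Lifr encodes the receptor through which LIF, added to these cultures, acts. Its peak covered the TSS with a score of 582.

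CpG content went with the presence of a peak. Of 20021 protein-coding genes on the autosomes, 17767 had no TSS of the other strand within 2 kb of any of their own and could be judged, and 4770 of them (26.8%, the background for the shares that follow) had a single-promoter peak. Among CpG-rich promoters 36.1% of 8089 genes had a single-promoter peak, and among CpG-poor promoters 19.1% of 9678. For each gene the TSS with most transcripts stood for its promoter, which left 4508 promoters with a peak at that TSS and 12997 genes with none at any TSS. CpG-rich promoters made up 62.0% of the former and 39.7% of the latter, a difference per autosome of 21.1 percentage points ± 6.2 (SD, n = 19), higher on 19 of 19 autosomes (adjusted p = 6.2e-06, exact sign-flip permutation test). The median CpG ratio per autosome was 0.69 ± 0.03 with a peak and 0.47 ± 0.11 without, a difference of 0.22 ± 0.09 (19 of 19 autosomes, adjusted p = 6.2e-06, exact permutation test). GC content was higher by 2.82 percentage points ± 1.69 (18 of 19 autosomes, adjusted p = 2e-05, exact permutation test).

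The share of genes with a peak was not a straight function of the CpG ratio. It was 5.17% (Wilson 95% interval 4.52 to 5.90) at a ratio below 0.2, 20.4% (19 to 21.9) at 0.2 to 0.4 and 36.8% (34.9 to 38.7) at 0.4 to 0.6. At 0.6 to 0.8 it was 38.0% (36.6 to 39.4), at 0.8 to 1 it was 35.3% (33.7 to 36.9), and at ratios of 1 and over it was 32.1% (27.5 to 37.0). The values from 0.4 upward lay within 6 points of each other.

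**Figure D4:**
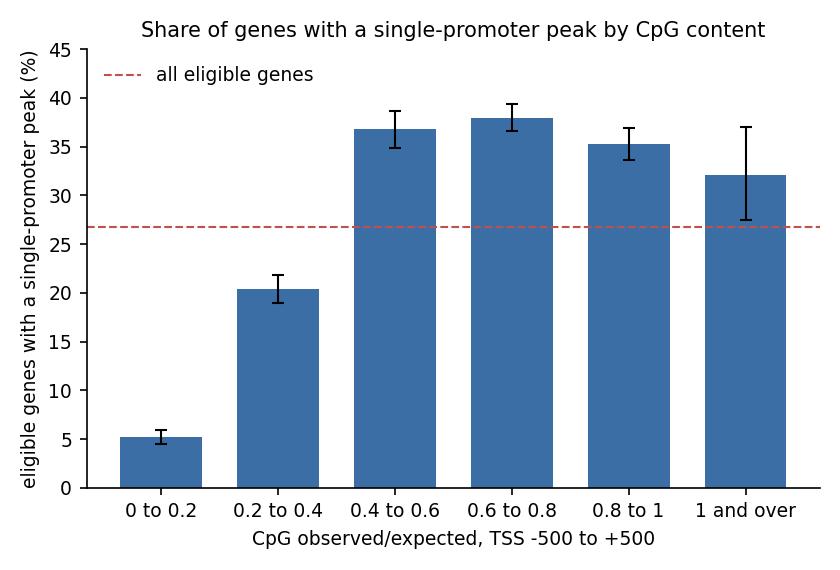
Percent of eligible genes with a single-promoter peak (y axis, bars from 0, error bars are Wilson 95% intervals) by the CpG observed/expected ratio of the promoter (x axis), with the share of all 17767 eligible genes, 26.8%, as a dashed line. The share is 5.17% below a ratio of 0.2 and 38.0% at 0.6 to 0.8.

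At promoters with a peak, CpG content went with width and less clearly with score. Each peak took the CpG class of the TSS of its gene with most transcripts, which is not always the TSS it lay at. Single-promoter peaks at CpG-rich promoters had a median width of 820 bp (3121 peaks) and those at CpG-poor promoters 651 bp (2040 peaks), a difference per autosome of 166.6 bp ± 42.7 on 19 of 19 autosomes (adjusted p = 6.2e-06, exact sign-flip permutation test). Median scores were 742 and 734, and the difference of 7.37 ± 22.9 units, positive on 14 of 19 autosomes, did not pass (adjusted p = 0.2, exact permutation test). The score difference passed with means in place of medians per autosome, at 11.9 units, with a limit of 2.5 kb, at 9.08 units, and among peaks above the median score, at 21.2 units.

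Genes with more exons more often had a peak. The share was 7.49% of 1937 genes with 1 exon, 23.3% of 3836 with 2 to 4, 28.5% of 5343 with 5 to 9 and 33.2% of 6651 with 10 or more, beside the 26.8% of all eligible genes. CpG-rich promoters made up 11.6%, 36.4%, 45.5% and 60.7% of these groups in the same order, and their part in the shares was not tested. By chromosome, the share lay between 23.8% (Wilson interval 20.4 to 27.4) on chromosome 16 and 30.2% (27.8 to 32.7) on chromosome 11.

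The share of genes with a peak differed widely between gene families, set beside the background of 26.8%. The families were drawn up by gene symbol or product name and are described with Wilson 95% intervals and no test. For RNA polymerase and Mediator subunits, 24 of 39 eligible genes (61.5%, 45.9 to 75.1) had a single-promoter peak. The highest scores were 924 for Polr3k, a subunit of RNA polymerase III, 923 for Med23 and Polr1b, a subunit of RNA polymerase I, and 915 for Med16. Aminoacyl-tRNA synthetases, which load tRNAs with their amino acids, had 15 of 26 (57.7%, 38.9 to 74.5), led by Tars with 935, Nars with 922 and Cars with 915. DEAD- and DEAH-box RNA helicases had 22 of 39 (56.4%, 41.0 to 70.7), with Ddx24 at 929 and Ddx39a at 927.

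Ribosome and protein turnover genes stood close together. Cytosolic ribosomal proteins had 33 of 65 (50.8%, 38.9 to 62.5), with Rpl27 at 942 and Rps21 at 940. Mitochondrial ribosomal proteins had 24 of 48 (50%, 36.4 to 63.6), with Mrps14 at 919, and a further 16 of these genes had a bidirectional-promoter peak only. Proteasome subunits had 15 of 30 (50%, 33.2 to 66.8), with Psmd4 at 923 and Psmd8 at 915. Heat shock proteins and the chaperonin had 27 of 54 (50%, 37.1 to 62.9), with Dnajc4 at 921 and Hspa1b, an inducible HSP70 gene, at 898. Respiratory chain and ATP synthase genes had 33 of 68 (48.5%, 37.1 to 60.2), with Ndufv1 of complex I at 941 and Atp5b of the ATP synthase at 925.

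Among genes of nuclear processes and of translation, splicing factors had 13 of 26 (50%, 32.1 to 67.9), with Prpf8 at 910 and Sf3b4 at 905. Genes of DNA replication had 11 of 26 (42.3%, 25.5 to 61.1), with Rfc1 at 900 and Mcm3 at 890. Cyclins and cyclin-dependent kinases had 16 of 37 (43.2%, 28.7 to 59.1), with Cdk19 at 923 and Cdk20 at 918. Translation initiation factors had 15 of 36 (41.7%, 27.1 to 57.8), with Eif3c at 865. Histone-modifying and chromatin enzymes had 28 of 76 (36.8%, 26.9 to 48.1), with the arginine methyltransferase gene Prmt5 at 945 and the H3K9 methyltransferase gene Setdb1 at 893. The last of these had a peak of only 389 bp.

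Zinc finger genes were the largest family with a share above the background. Of 380 eligible Zfp, Zkscan and Zscan genes, 167 (43.9%, 39.0 to 49) had a single-promoter peak, while 48.7% of the 380 promoters were CpG-rich. The highest scores were 948 for Zfp78, 941 for Zscan20, 936 for Zfp143, whose product binds the ZNF143 site, and 934 for Zfp866. BTB zinc finger genes, the family of ZBTB21, had 12 of 35 (34.3%, 20.8 to 50.8), with Zbtb5 at 926 and Zbtb8b at 900. Rab GTPases had 23 of 52 (44.2%, 31.6 to 57.7), with Rab3a and Rab5b at 944.

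Several families lay near the background. Nuclear receptors had 14 of 41 (34.1%, 21.6 to 49.4), with the retinoic acid receptor gene Rara at 856. Mitogen-activated protein kinases and their kinases had 11 of 36 (30.6%, 18 to 46.9). Solute carriers had 99 of 332 (29.8%, 25.2 to 34.9), with Slc25a42 at 946, and E3 ubiquitin ligases 11 of 39 (28.2%, 16.5 to 43.8), with Ltn1 at 920. Claudins and cadherins had 12 of 44 (27.3%, 16.3 to 41.8), with Cdh10 at 913 and Cldn3 at 880.

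Among developmental regulators, 3 families had shares under the background of 26.8%, with intervals that hold it for Sox and forkhead factors but not for Hox genes. Hox genes, which pattern the body axis, had 4 of 39 (10.3%, 4.06 to 23.6) although 61.5% of their promoters were CpG-rich, and their highest scores were 706 for Hoxb7 and 646 for Hoxd11. Sox factors had 3 of 18 (16.7%, 5.84 to 39.2), namely Sox1 with 785, Sox9 with 748 and Sox15 with 729, and 77.8% of their promoters were CpG-rich. Forkhead factors had 8 of 37 (21.6%, 11.4 to 37.2), with Foxr1 at 807, and 75.7% of their promoters were CpG-rich.

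The remaining families, largely of specialised tissues, had shares from 0% to 19.6%, and the intervals of interleukins and chemokines and of collagens hold the background. Interleukins and chemokines had 9 of 46 (19.6%, 10.7 to 33.2), collagens 7 of 38 (18.4%, 9.22 to 33.4), keratins 6 of 49 (12.2%, 5.73 to 24.2) and serpins 7 of 60 (11.7%, 5.77 to 22.2). Cytochrome P450 enzymes had 9 of 90 (10%, 5.35 to 17.9), among them Cyp4f13 at 904 and Cyp11a1, which starts steroid synthesis, at 894. Defensins had 2 of 70 (2.86%, 0.79 to 9.83), Defb1 and Defb29. Olfactory receptors had 8 of 1097 (0.73%, 0.37 to 1.43), the highest being Olfr373 at 815, and none of 386 vomeronasal and taste receptors had a single-promoter peak (0%, with an upper Wilson bound of 0.99%).

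**Figure D5:**
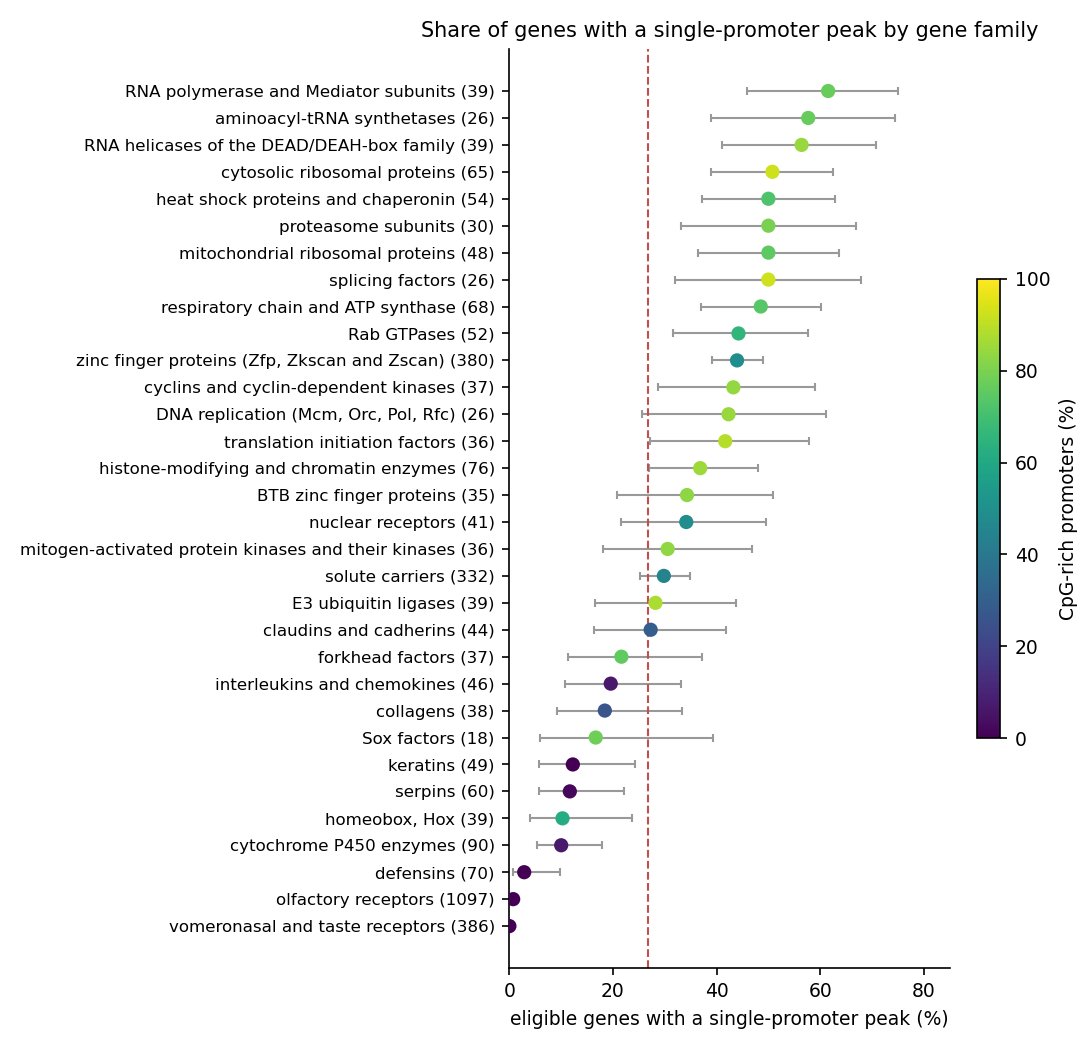
Percent of eligible genes with a single-promoter peak (x axis, points, with Wilson 95% intervals as bars) for 32 gene families (y axis, number of eligible genes in parentheses), coloured by the percent of CpG-rich promoters, with the 26.8% of all eligible genes as a dashed line. RNA polymerase and Mediator subunits are at the top with 61.5%, and Hox genes are at 10.3% in spite of 61.5% CpG-rich promoters.

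Pluripotency genes were checked as markers of the labelled cell type. Of 24 markers, 22 could be judged and 10 (45.5%, 26.9 to 65.3) had a single-promoter peak, beside the 26.8% of all eligible genes. Tbx3 had the highest score, 909 (833 bp), with its midpoint 174 bp upstream of the TSS. Zfp42 had 892, Sall4, a zinc finger factor gene, 820 and Nanog 805. Pou5f1, which encodes OCT4, had 2 peaks, the higher-scored with 861, and the nearer edge of its peaks was 450 bp from the TSS. The peak of Prdm14 (680) likewise did not reach the TSS, from which it was 555 bp away. Dppa2 had 776, Dppa5a 771, Nr5a2 687 and Tcl1 632, and each of these genes had a peak over a TSS.

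The other markers of mESCs had none within 1 kb. The nearest listed peak was 1068 bp from the TSS of Tfcp2l1, 1448 bp from Dppa3, 1529 bp from Utf1, 2261 bp from Fbxo15, 2307 bp from Klf2, 2930 bp from Fgf4 and 6392 bp from Lin28a. It was 10004 bp from Sox2, 11550 bp from Esrrb, 13928 bp from Tdgf1, 19286 bp from Dppa4, 22037 bp from Klf5 and 31129 bp from Klf4. Nr0b1 had no curated TSS on these chromosomes. Genes that define the cell type were therefore in part without a listed promoter peak.

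Lists of markers of other cells were set beside the same background. Of 18 fibroblast markers, which the feeder cells could add, 4 (22.2%, 9 to 45.2) had a single-promoter peak, Thy1 with 829, Pdgfra with 687, Vim with 613 and Pdgfrb with 602. The nearest listed peak was 6069 bp away from Col1a1, 38988 bp from Col1a2, 48127 bp from Col3a1, 218289 bp from Postn, 165609 bp from Dcn and 251610 bp from Lum. Whether feeder cells added to the list was not tested. Of 9 endoderm markers only Pdgfra had a peak, of 7 mesoderm markers none, and of 7 trophoblast markers only Krt8, with 645. For endoderm markers without one, the nearest listed peak was 1399 bp (Foxa2) to 68253 bp (Gata4) away. For mesoderm it was 2586 bp (Hand1) to 48800 bp (Mixl1) away, and for trophoblast 1974 bp (Cdx2) to 13600 bp (Krt18). Of 8 neural markers 4 did (50%, 21.5 to 78.5). Among them were Otx1 with 833, Sox1 with 785 and Pax6 with 761, all genes of transcription factors.

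Of 9 loci that the study names for mESCs, 4 could be judged. Of these, 2 (50%, 15 to 85) had a single-promoter peak, beside the 26.8% of all eligible genes. Mmab, Znrd1, Lrrc75a, Ncor1 and Pigl could not be judged, since a TSS of the other strand lay within 2 kb. Man1b1, a mannosidase gene, had a peak of 735 bp with a score of 892 and its midpoint 90 bp upstream of the TSS. Lsm4, which encodes a part of the U6 snRNP, had one of 986 bp with a score of 707. Mmab and Znrd1 had a bidirectional-promoter peak only. The promoters of Lrrc75a, Ncor1, Pigl, Sall1 and Chd9 had no listed peak within 1 kb, and the nearest ones were 7438 to 14000 bp away.

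Most genes had a peak at 1 place. Of the 4770 genes, 4505 had 1 single-promoter peak, 248 had 2 and 17 had 3 or more. Abr had 4 peaks with scores of 808, 554, 629 and 804 and widths from 382 to 1138 bp, of which the third covered a TSS. Bdnf, the gene of brain-derived neurotrophic factor with its many alternative first exons, also had 4, with scores of 718, 666, 788 and 630, and all lay beside the TSSs, 82 to 758 bp from them. The 3 peaks of Arap1 (777, 602 and 899) each covered a TSS.

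Genes with promoters over 2 kb apart showed which start was marked. There were 1427 such eligible genes, and 596 of them (41.8%) had a single-promoter peak, beside 26.8% of all eligible genes. More promoters give more places for a peak. The peak lay only at the most upstream promoter in 235 genes, only at a later one in 255 (42.8%) and at both in 106. Abr, Arap1, Atxn7l1, Bdnf, Foxp1, Gramd1b, Rbfox2 and Zfp532 had peaks at 3 of their promoters.

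Short motifs of promoter-binding factors were counted in the same 300 bases at all 17767 eligible promoters, on both strands except for the TATA box. The ETS core CCGGAAGT was held by 8.58% (Wilson interval 7.80 to 9.44) of the 4508 promoters with a peak, by 3.32% (3.03 to 3.65) of the 12997 without and by 4.63% of all. The YY1 core AAGATGGC was held by 4.61%, 2.12% and 2.74% in the same order, and the ZNF143 core ACTACAA by 5.04%, 3.16% and 3.61%. Within CpG-rich promoters, the ETS core was held by 11.4% with and 6.60% without a peak, the YY1 core by 5.76% and 3.48%, and the ZNF143 core by 5.08% and 2.52%. A match is a stretch of letters and not a bound site.

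The GC box GGGCGG was held by 60.1% of promoters with a peak and 42.1% without (46.9% of all), but within CpG-rich promoters the order turned, with 71.3% and 77.5%. The NFY box CCAATNA was held by 20.9% with and 15.1% without (16.5% of all), the NRF1 core GCGCATGC by 4.39% and 3.02% (3.38%), the CRE TGACGTCA by 3.17% and 1.99% (2.3%) and the E-box CACGTG by 9.76% and 7.13% (7.83%). Within CpG-rich promoters the NFY box was held by 22.1% with and 14.1% without. The NRF1 core was held there by 5.65% and 6.04%, the CRE by 3.69% and 3.41% and the E-box by 10.98% and 11.34%. The shares of the NRF1 core, the CRE and the E-box were close. No intervals were made within CpG-rich promoters, so no order is read for these motifs. The orders given there for other motifs are descriptions only. The octamer ATGCAAAT, bound by OCT4 and other POU factors, was held by 1.86% (1.51 to 2.3) and 1.65% (1.44 to 1.88), shares whose intervals overlap, and by 1.69% of all. Within CpG-rich promoters these were 1.54% and 1.10%.

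The AP-1 site TGANTCA was held by 5.12% (4.52 to 5.81) with and 7.84% (7.39 to 8.31) without, and by 7.13% of all, but within CpG-rich promoters by 3.83% with and 2.98% without. TATAAA between 40 and 20 bases before the TSS on the sense strand was held by 1.29% (1.00 to 1.66) with and 3.77% (3.46 to 4.11) without, and by 3.10% of all, and within CpG-rich promoters by 0.86% with and 1.08% without. Of the promoters with that box, 10.9% had a single-promoter peak, as against 26.8% of all eligible genes. None of the 11 motifs was found in 19.3% of promoters with a peak and in 33.6% without.

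Scores differed with some of these motifs, as a description across peaks. The median highest score of the gene was 816 with the ZNF143 core and 743 without, 805.5 with the YY1 core and 745 without, 798 with the NFY box and 735 without, and 791 with the ETS core and 742 without. For the GC box the medians were 745 and 749, for the E-box 739.5 and 748, and for the TATA box 730 and 747.5.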

How the data were processed

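ATAC-seq of untreated V6.5 mESCs (2 samples) was analysed from the 1 peak list that the authors deposited for that condition, in mm10 coordinates. The score in the list is a whole number that the authors deposited with no stated unit. The processing notes of the submitters name cutadapt 2.6, Bowtie2 2.3.5.1 and MACS2 2.1.1. The steps for ATAC-seq peaks, a shift of Tn5 cut sites included, are not given in the sources used here. For ChIP-seq the methods give an IDR threshold of 0.05 and blacklist removal. The list has no counts, so depth is unknown.

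TSSs were those of 24831 curated RefSeq protein-coding starts on chromosomes 1 to 19 of GRCm38. The distance ran from the peak edge. Of the 5016 single-promoter peaks outside chromosome 18, 3994 had their TSS in the RefSeq promoter table. Peaks within 1 kb of a curated noncoding TSS only were set apart (550 peaks). Of the single-promoter peaks, 15 lay near TSSs of 2 genes of 1 strand and 295 near a curated noncoding TSS of the other strand. The 13 comparisons used medians or shares per autosome and a two-sided exact sign-flip permutation test of the 19 differences, with Benjamini-Hochberg adjustment, which was tested on simulated data. Intervals are Wilson 95%.

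Peaks, families, gene lists, motifs and tests were chosen with earlier results of these data known. Symbol and product patterns of 4 families (aminoacyl-tRNA synthetases, E3 ubiquitin ligases, initiation factors and chromatin enzymes) were corrected after their members were seen, since they missed genes or took others. Genes were named by fixed rules. These took the genes of the marker lists, all loci the study names, and the 10 highest and 5 lowest scores over a TSS. They also took the 5 widest and 5 narrowest peaks, the 3 genes with most peaks and the 3 nearest to 1 kb on each side. Up to 4 top-scored genes per family were added. In the marker lists of other cells, most genes without a peak are counted and not named. A gene of the neural marker list is counted but not reported here by name. Python 3.11.15 was used with numpy, pandas, scipy and pysam.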

Additional observations from a re-analysis of the deposited data

How the results depend on the processing

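The 13 comparisons were recomputed with the distance taken from the peak midpoint, with limits of 500 bp and 2.5 kb, with peaks above the median score only, with peaks within 500 bp merged, without peaks near a noncoding TSS of the other strand, with means per chromosome and with base composition from 250 bases before to 50 bases after the TSS. Of 92 recomputed values, 88 kept their direction and their side of the 0.05 threshold, and the other 4 kept their direction and passed where the main value had not. Among these, the score difference between CpG-rich and CpG-poor promoters was 9.08 at 2.5 kb (exact permutation test, adjusted p = 0.0095), 21.2 above the median score (adjusted p = 0.00021) and 11.9 with means (adjusted p = 0.0011). The downstream share lay -8.24 points from the upstream share above the median score. That stricter list held 3188 single-promoter peaks and 3036 genes with one. Under the other settings the peaks numbered 4697 to 6325 and the genes 4499 to 5372. Leaving out each chromosome in turn gave 247 values, all with the direction and the side of the threshold of the whole set. No paired analysis was possible because the deposited list pools both replicates, so neither a replicate block nor a fit without 1 replicate could be made. Unknown depth limits what a missing peak can mean.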
